A study of Mus musculus with 2 samples.

Results

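Matrix glycoproteins, basement membrane components and the enzymes that modify and crosslink collagen were followed in cultured myofibroblasts of the mouse small intestine. The set was a list of 45 genes chosen by name and function, with earlier results of these data known. Of these, 41 had a probeset paired with exactly 1 gene, out of 22180 genes named on the array. The 2 genes whose probesets were paired with several genes, Loxl2 and Plod3, are left out for that reason, and Fbn1 and Efemp2 were not analysed here. The stimulated group held myofibroblasts that spent 1 day with eosinophil homogenate (5 mg/ml), and the non-stimulated group held the same kind of cells without it. Both came from wild-type BALB/c mice. RNA of triplicate cultures was mixed for each condition and hybridised to 1 GeneChip Mouse Gene 2.0 ST array. There is therefore no replicate error and no test. Every difference below (stimulated minus non-stimulated, log2 scale) describes these 2 pools, and the number of arrays limits the precision.

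Fibroblasts surround themselves with a matrix of collagen fibres, adhesive glycoproteins and elastic fibres. Fibronectin and the matricellular proteins link cells to this matrix, fibrillins and fibulins scaffold elastin, and laminins, nidogens and perlecan build the basement membrane on which epithelium rests. Prolyl and lysyl hydroxylases modify collagen chains inside the cell, and lysyl oxidases crosslink collagen and elastin outside it. Subepithelial myofibroblasts of the gut lie directly under the epithelial basement membrane and contribute to it.

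Values are log2 signals after RMA, a method that corrects background and sets arrays to one distribution, so a difference is measured against the rest of the array. They run from 1.11 to 13.79 on the stimulated array and from 1.08 to 13.79 on the non-stimulated array. The background level, read from the 95th percentile of 1407 probesets for odorant and vomeronasal receptors, was 5.57 on the stimulated array and 5.58 on the non-stimulated array. A gene above it on at least 1 array was compared, which 14068 genes were. The cells carried fibroblast transcripts, with all 11 fibroblast markers above background, among them vimentin (Vim, 13.16 stimulated and 13.10 non-stimulated) and smooth muscle alpha-actin (Acta2, 12.78 stimulated and 13.07 non-stimulated). Although a label field names eosinophils as the source, all 6 measured eosinophil markers were under background on both arrays, the granule protein genes Epx (5.25 stimulated and 4.73 non-stimulated) and Prg2 (4.32 stimulated and 4.75 non-stimulated) among them. The epithelial adhesion gene Epcam (4.49 stimulated and 4.35 non-stimulated) and the macrophage gene Adgre1 (4.57 stimulated and 4.51 non-stimulated) were under background too. Of 8 markers each, 3 endothelial, 4 epithelial and 3 macrophage genes passed the level, among them Egfl7 (6.33 stimulated and 6.24 non-stimulated), Krt8 (6.23 stimulated and 6.45 non-stimulated) and Cx3cr1 (6.81 stimulated and 6.57 non-stimulated). All 3 macrophage genes were higher on the stimulated array (median 0.23), and 1 of these, Lyz2, was above background only there. Of the endothelial genes 1 was higher and 2 lower, and of the epithelial genes 2 were higher and 2 lower. On the linear scale, the markers summed to 370 stimulated and 349 non-stimulated for endothelium, 385 stimulated and 401 non-stimulated for epithelium, and 427 stimulated and 387 non-stimulated for macrophages. Each sum takes in all 8 genes, of which 5 endothelial, 4 epithelial and 5 macrophage genes were under background. Much of each sum is therefore signal near the background level, and its differences are not read as cell content. The 11 fibroblast markers summed to 40761.2 stimulated and 42054.5 non-stimulated. The part of such cells in the results below was not tested, and in bulk RNA fewer cells of a type and less RNA per cell cannot be told apart.

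The myofibroblast matrix genes differed little between the conditions, with a few members lower after the homogenate. Of the 41 genes with a value, 39 were above background, 38 of them on both arrays. Comp and Mfap4 were under background on both arrays and give no difference. Of the 39, 21 were higher on the stimulated array and 18 lower, with a median of 0.01 beside 0.00 for all genes compared, of which 50.2% were higher and 48.2% lower. The mean over the members was -0.06, of opposite sign to the median. Differences under 0.1 in size were seen for 20 members (51.3%), beside 50.3% of all genes, so that the members' share lay near the background.

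No member differed by 2-fold, as 0.192% of all genes did upwards and 0.0426% downwards. None was at least 1.5-fold higher (background 0.796%) and 1 was at least 1.5-fold lower (background 0.64%), namely Mgp. At 1.2-fold, 1 member was higher (2.56% of members, background 6.11%), the thrombospondin gene Thbs4. At the same size 6 were lower (15.4% of members, background 6.91%), namely Mgp, Fbln5, Spon1, Nid2, Loxl4 and Thbs1. The members nearest to that size without reaching it were Sparcl1, at 1.17-fold lower, and Thbs2, at 1.17-fold higher. The 6 lower genes were spread over 4 of the 5 roles described below, and the set of collagen-modifying enzymes held none.

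**Figure D1:**
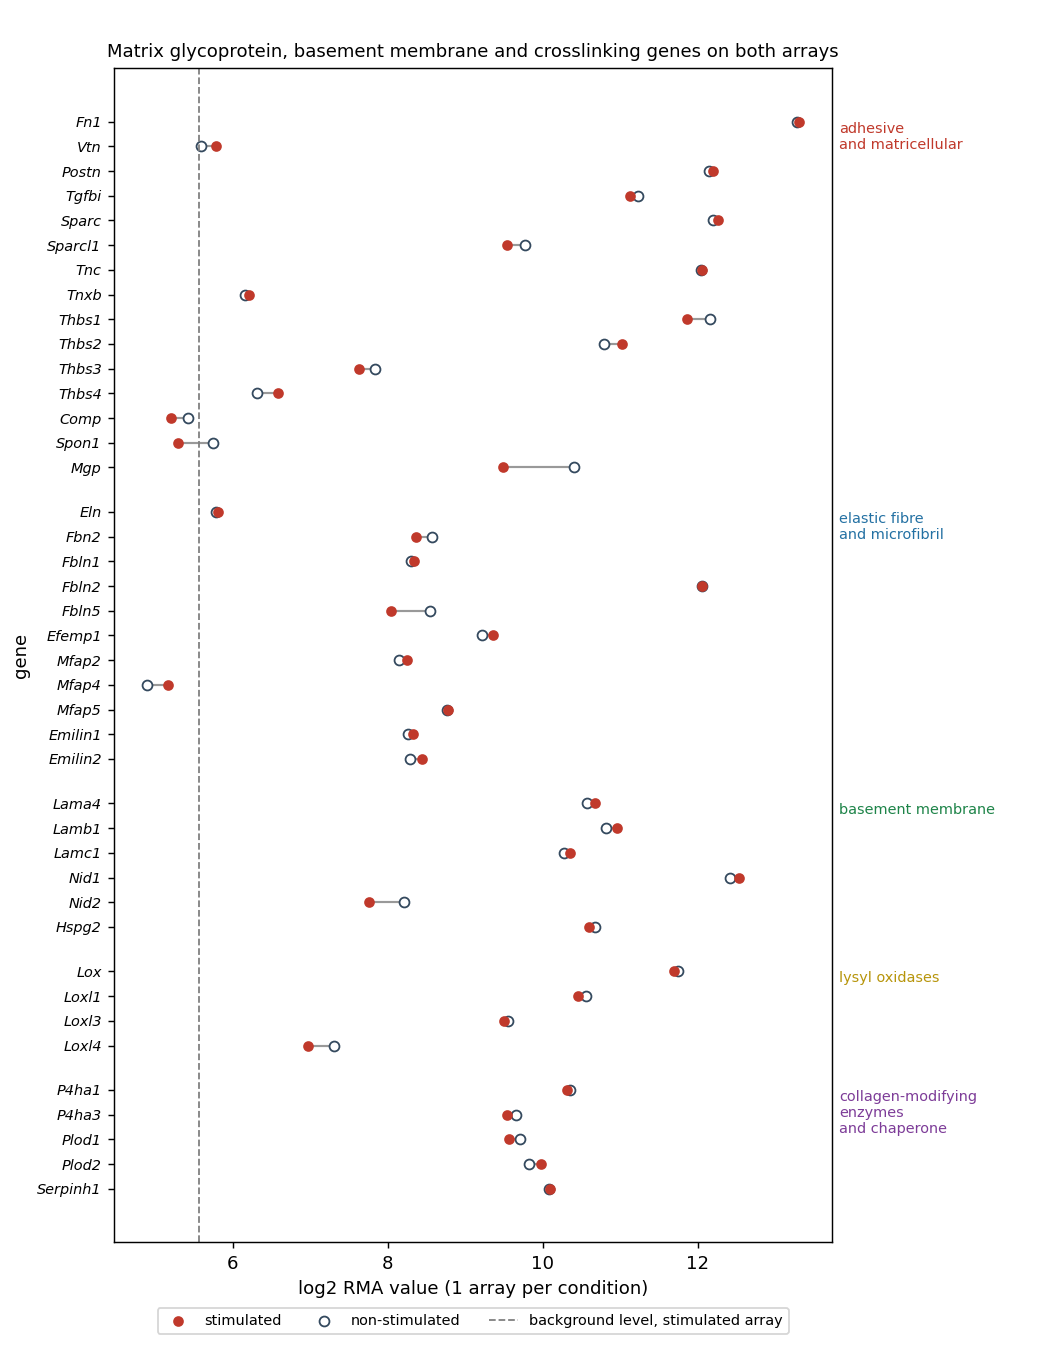
Log2 RMA value (x axis) of each measured member (y axis), grouped by role, on the stimulated array (filled points) and the non-stimulated array (open points), 1 array per condition; the dashed line is the background level of the stimulated array. Mgp has the widest gap, 9.49 stimulated against 10.41 non-stimulated, and most pairs of points nearly coincide. Levels of different genes come from different probes and are not compared.

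Adhesive and matricellular genes held both the lowest and the highest difference of the set. Of 15 genes, 14 were above background, 8 higher and 6 lower, with a median of 0.02 and a mean of -0.09 that differed in sign. Mgp encodes matrix Gla protein, an inhibitor of calcification that also binds bone morphogenetic proteins. It read 9.49 on the stimulated array and 10.41 on the non-stimulated array, a difference of -0.92 (1.89-fold lower). This was rank 11 from the lowest among the 14068 genes. In the brightest of 4 equal sets of genes by mean signal, where the central 95% of differences ran from -0.25 to 0.29, only 1 of 3517 genes was lower. Spon1, which encodes the secreted adhesive protein F-spondin, read 5.30 stimulated and 5.75 non-stimulated. Its stimulated value was under background, so that the measured difference of -0.45 shrinks to at least 1.13-fold lower against the background level.

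The thrombospondins, secreted glycoproteins that bind cells, proteases and growth factors, split in direction. Thbs1, whose product is an activator of latent TGF-beta, read 11.87 stimulated and 12.15 non-stimulated, a difference of -0.28 (1.22-fold lower). Thbs3 read 7.63 stimulated and 7.84 non-stimulated, a difference of -0.21. By contrast Thbs2, the closest relative of Thbs1 in domain structure, read 11.02 stimulated and 10.79 non-stimulated, a difference of 0.23. Thbs4, of the pentameric subgroup, read 6.59 stimulated and 6.31 non-stimulated, a difference of 0.28 (1.21-fold higher). The thrombospondin genes above background were thus 2 higher and 2 lower, spanning 0.57 on the log2 scale. Thbs1 lay outside the central 95% of its brightness set and Thbs2 inside it, as did Thbs3 and Thbs4 in theirs. Comp, the fifth family member, read 5.20 stimulated and 5.42 non-stimulated, under background on both.

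Transcripts of the main adhesive proteins of the stroma were nearly equal on the arrays. Fn1 (fibronectin) read 13.31 stimulated and 13.28 non-stimulated, a difference of 0.04. The tenascin gene Tnc read 12.06 stimulated and 12.05 non-stimulated, a difference of 0.01, and Tnxb differed by 0.05. Postn (periostin, a matricellular protein that binds integrins) differed by 0.05, Sparc (a collagen-binding matricellular protein) by 0.06 and Tgfbi (an integrin-binding protein induced by TGF-beta) by -0.10. Sparcl1, the relative of Sparc also called hevin, read 9.54 stimulated and 9.77 non-stimulated, a difference of -0.23. Vtn (vitronectin, an adhesive plasma protein made mainly by liver) read 5.79 stimulated and 5.58 non-stimulated, so that its difference of 0.20 rests on a non-stimulated value within 0.01 of the background level.

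**Figure D2:**
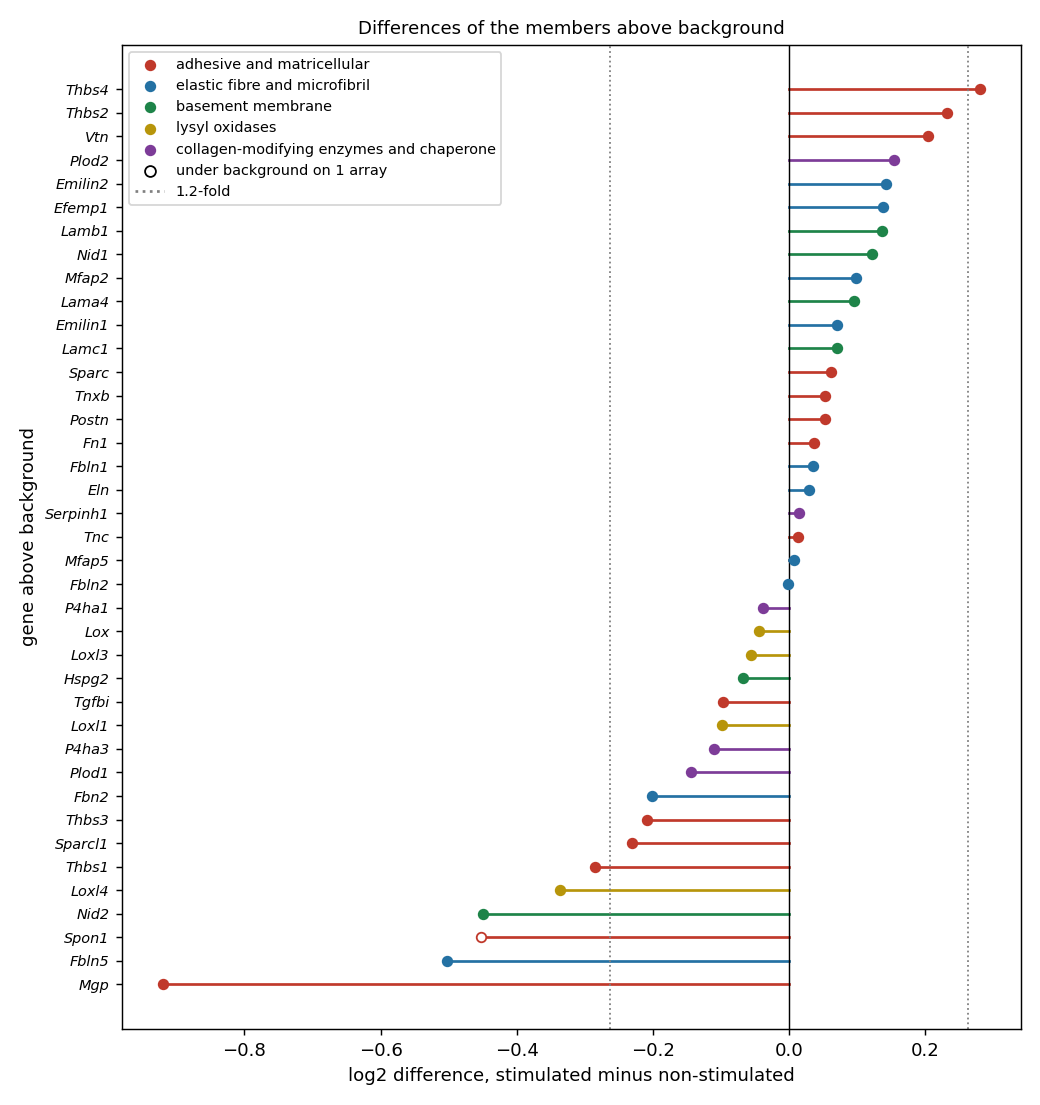
Log2 difference, stimulated minus non-stimulated (x axis), of the 39 members above background, ordered by size (y axis) and coloured by role; dotted lines mark 1.2-fold and the open point is Spon1, under background on 1 array. The list runs from Thbs4 at 0.28 to Mgp at -0.92, with 6 members past the lower line and 1 past the upper.

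Among elastic fibre and microfibril genes above background, 1 was at least 1.2-fold lower and 6 differed by less than 0.1. Of 10 genes above background, 7 were higher and 3 lower, a median of 0.03 beside a mean of -0.02. Fbln5 encodes fibulin-5, which binds elastin and integrins and is needed for elastic fibre assembly in mice. It read 8.04 stimulated and 8.55 non-stimulated, a difference of -0.50 (1.42-fold lower), at rank 158 from the lowest of all genes and rank 18 in its brightness set of 3517. Its relatives did not share that size: Fbln1 differed by 0.04, Fbln2 by 0.00 and Efemp1 (fibulin-3) by 0.14. Fbn2, which encodes a fibrillin, the microfibril backbone, read 8.37 stimulated and 8.57 non-stimulated, a difference of -0.20. The microfibril-associated genes Mfap2 and Mfap5 differed by 0.10 and 0.01, and Emilin1 and Emilin2, whose products sit at the elastin and microfibril interface, by 0.07 and 0.14. Eln (elastin) read 5.81 stimulated and 5.78 non-stimulated, little above background. Mfap4, another microfibril-associated gene, read 5.17 stimulated and 4.89 non-stimulated, under it.

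Promoter windows of GRCm38.p6, credited to RefSeq, were available for 27 of the 45 listed genes, in 35 windows of 300 bases (250 before a transcription start and 50 after it). The lower members Mgp, Nid2, Spon1 and Thbs1 had no window. Shown are the windows of Fbln5, the lowest member with a window, and of Thbs2 and Thbs4, the thrombospondins that were higher. Fbln5 has windows at 2 starts, the outer at chr12:101819070-101819369 and the inner at chr12:101818435-101818734. The Thbs2 window is chr17:14694213-14694512 and the Thbs4 window chr13:92794769-92795068. All 4 are on the minus strand and written 5′ to 3′ along the gene. Capitals mark every match, on either strand, to the motifs searched, which do not overlap in these windows, and positions count from 1 at the first base printed.
Fbln5, outer start: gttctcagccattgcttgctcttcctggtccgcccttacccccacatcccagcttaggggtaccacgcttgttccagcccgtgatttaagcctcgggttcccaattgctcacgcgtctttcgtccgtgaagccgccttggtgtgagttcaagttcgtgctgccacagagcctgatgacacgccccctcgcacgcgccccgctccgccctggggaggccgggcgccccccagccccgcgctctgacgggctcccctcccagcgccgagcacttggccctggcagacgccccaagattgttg
Fbln5, inner start: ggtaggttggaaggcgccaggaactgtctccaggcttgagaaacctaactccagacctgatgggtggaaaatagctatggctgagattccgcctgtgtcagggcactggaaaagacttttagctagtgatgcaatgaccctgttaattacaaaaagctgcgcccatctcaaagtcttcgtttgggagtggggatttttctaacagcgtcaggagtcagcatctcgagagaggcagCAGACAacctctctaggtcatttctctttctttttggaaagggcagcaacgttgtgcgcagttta
Thbs2: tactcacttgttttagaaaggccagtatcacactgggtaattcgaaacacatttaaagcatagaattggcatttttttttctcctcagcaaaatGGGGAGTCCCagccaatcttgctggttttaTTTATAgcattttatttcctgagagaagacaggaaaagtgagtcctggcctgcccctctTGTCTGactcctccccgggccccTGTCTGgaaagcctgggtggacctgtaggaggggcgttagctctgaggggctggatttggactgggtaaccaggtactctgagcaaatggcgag
Thbs4: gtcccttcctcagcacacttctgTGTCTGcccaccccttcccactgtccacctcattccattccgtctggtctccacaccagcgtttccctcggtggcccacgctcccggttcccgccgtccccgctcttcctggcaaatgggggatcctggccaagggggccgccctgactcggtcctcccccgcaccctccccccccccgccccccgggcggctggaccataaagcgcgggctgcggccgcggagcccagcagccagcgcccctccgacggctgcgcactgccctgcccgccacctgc

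The motifs were the TATA box (TATAAA), the AP-1 site (TGANTCA), the Smad-binding letters CAGACA, the NF-kB consensus and the CArG box that serum response factor binds. CAGACA occurred once in the inner Fbln5 window, at base 236, and once in the Thbs4 window, at base 24 on the opposite strand. The Thbs2 window held it at bases 184 and 207, both on the opposite strand, as were TATAAA at base 125 and an NF-kB match at base 95. No motif matched in the outer Fbln5 window. Of the 10 member genes with CAGACA in a window, only Fbln5 was lower. Emilin1, Fbln1, Mfap2, Serpinh1, Sparc, Thbs2, Thbs4, Tnc and Vtn were higher, from 0.01 for Tnc to 0.28 for Thbs4. A link between these letters and direction was not tested. Over all 35 member windows, CAGACA was in 34.3%, against 21.0% of all 32851 windows. TATAAA was in 20% of member windows and 13.6% of all, and TGANTCA in 5.71% and 7.81%. The NF-kB consensus matched in windows of Loxl4 (difference -0.34), Mfap2 (0.10), Serpinh1 (0.02) and Thbs2 (0.23), thus of a lower member too. It was in 11.4% of member windows and 4.51% of all. That share depends on the letters chosen: a narrower NF-kB pattern with fixed T bases in its centre, which was searched first, was in 0 of the 35 member windows and 1.63% of all. The CArG box was in no member window and 1.63% of all. The windows of the members had a median GC content of 60.3%, against 52.7% over all windows. A match is a string of letters and no measured binding, and a missing match says only that these letters are not in the window.

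Among the basement membrane genes of the set, the 3 laminin chain genes and Nid1 were slightly higher, and Nid2 was lower. With the chains outside the set, laminin genes went both ways, 5 of 9 higher and 4 lower. Of 6 genes above background, 4 were higher and 2 lower, a median of 0.08 beside a mean of -0.02. Lama4, Lamb1 and Lamc1 encode the 3 chains of laminin-411, a laminin of mesenchymal and vascular basement membranes. Lamb1 read 10.96 stimulated and 10.82 non-stimulated, a difference of 0.14, while Lama4 differed by 0.10 and Lamc1 by 0.07. Nidogens bridge laminin and type IV collagen. Nid1 read 12.53 stimulated and 12.41 non-stimulated, a difference of 0.12, and a further Nid1 probeset gave 0.10. Nid2 read 7.76 stimulated and 8.21 non-stimulated, a difference of -0.45 (1.37-fold lower), at rank 238 from the lowest of all genes and rank 30 in its brightness set. The nidogen genes therefore lay 0.57 apart and in opposite directions. Hspg2 (perlecan, the heparan sulfate proteoglycan of basement membranes) read 10.60 stimulated and 10.67 non-stimulated, a difference of -0.07.

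All 4 lysyl oxidase genes measured were lower on the stimulated array, most by little, with a median of -0.08. Centring on the median of all genes takes 0.0016 from every difference, and centring on a lowess trend gave a median of -0.09. Both shifts were smaller than each of the differences, so the unchanged direction adds nothing to the values themselves. Loxl4 read 6.97 stimulated and 7.30 non-stimulated, a difference of -0.34 (1.26-fold lower). Lox, the founding member, read 11.70 stimulated and 11.74 non-stimulated, a difference of -0.04. Loxl1, linked to elastin crosslinking in mice, differed by -0.10 and Loxl3 by -0.06. Among all genes compared, 48.2% were lower by any size.

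The collagen-modifying enzymes differed by less than 1.2-fold each. Of 5 genes above background, 2 were higher and 3 lower (median -0.04). The lysyl hydroxylases lay in opposite directions: Plod2, which hydroxylates telopeptide lysines and so steers collagen towards stable crosslinks, read 9.98 stimulated and 9.83 non-stimulated (0.15), and Plod1, which acts on helical lysines, read 9.56 stimulated and 9.71 non-stimulated (-0.14). The prolyl 4-hydroxylase subunit genes P4ha1 and P4ha3 differed by -0.04 and -0.11. Serpinh1 (HSP47, the collagen chaperone of the endoplasmic reticulum) read 10.09 stimulated and 10.08 non-stimulated, a difference of 0.02 whose sign turned when differences were centred on a lowess trend.

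**Figure D3:**
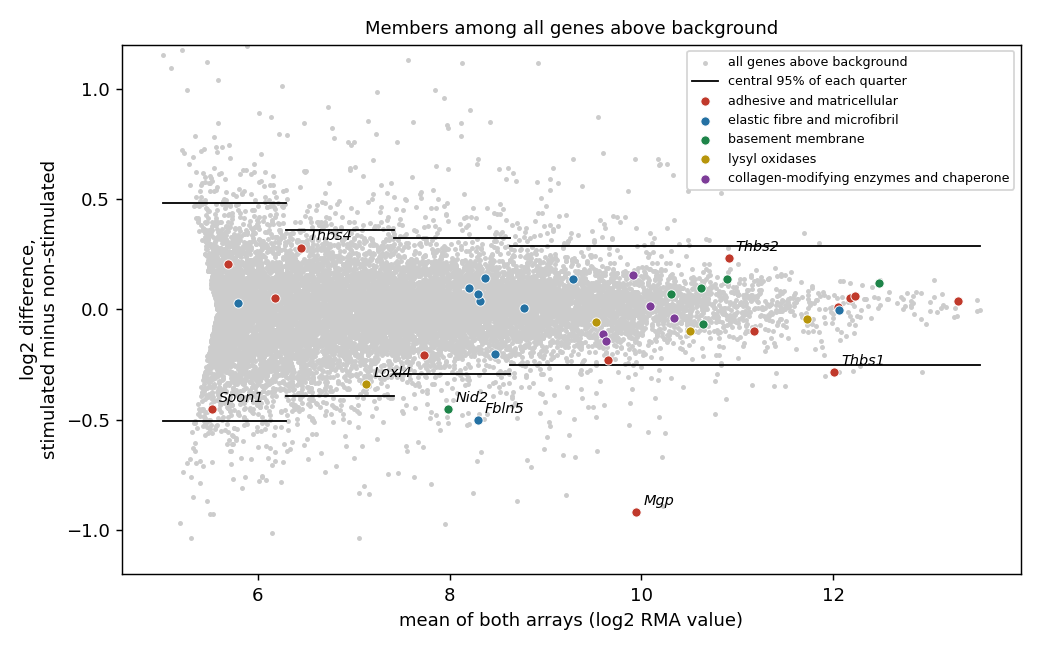
Log2 difference, stimulated minus non-stimulated (y axis), against the mean of both arrays (x axis, log2 RMA value) for 14068 genes above background (grey) and the 39 members (coloured by role); black lines give the central 95% of each of 4 equal sets by mean signal, and 20 genes lie beyond the plotted range of 1.2. Mgp, Thbs1, Fbln5 and Nid2 lie under the lower lines and no member lies over an upper line.

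Set against genes of similar signal, 4 members lay under the central 95% of their brightness set (background 2.5%) and none over it (background 2.5%). These were Mgp and Thbs1 in the brightest set, which held 25 members, and Fbln5 and Nid2 in the next, which held 8 members and had limits of -0.29 and 0.32. In the dimmer sets the limits were wider, at -0.39 and 0.36 for the set with Loxl4 and Thbs4, and at -0.51 and 0.48 for the dimmest with Spon1. Neither Spon1 nor Loxl4 nor Thbs4 passed them. These limits describe the spread over genes and are no replicate error.

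Relatives within a family, grouped after their values were seen, lay on both sides of 0 in 9 of 11 families. Of all genes compared, 50.2% were higher and 48.2% lower, so small groups of unrelated genes would often split too. The count is therefore no trait of these families. Of the prolyl 4-hydroxylase subunits, P4ha2, which is not in the set, read 8.43 stimulated and 8.01 non-stimulated, a difference of 0.42, beside the lower P4ha1 and P4ha3. Beside Fbn2, the latent TGF-beta binding protein genes Ltbp1 and Ltbp2, which share its domain type, differed by -0.31 and 0.63. Among 9 laminin chain genes, 5 were higher and 4 lower, from -0.16 for Lama2 to 0.41 for Lama1. Of these 11 families, the tenascin genes Tnc, Tnxb and Tnn, the last not in the set, lay closest together, with differences spanning 0.05. Tnxb (6.21 stimulated and 6.16 non-stimulated) and Tnn (6.16 stimulated and 6.09 non-stimulated) were in the dimmest brightness set, not far above background.

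**Figure D4:**
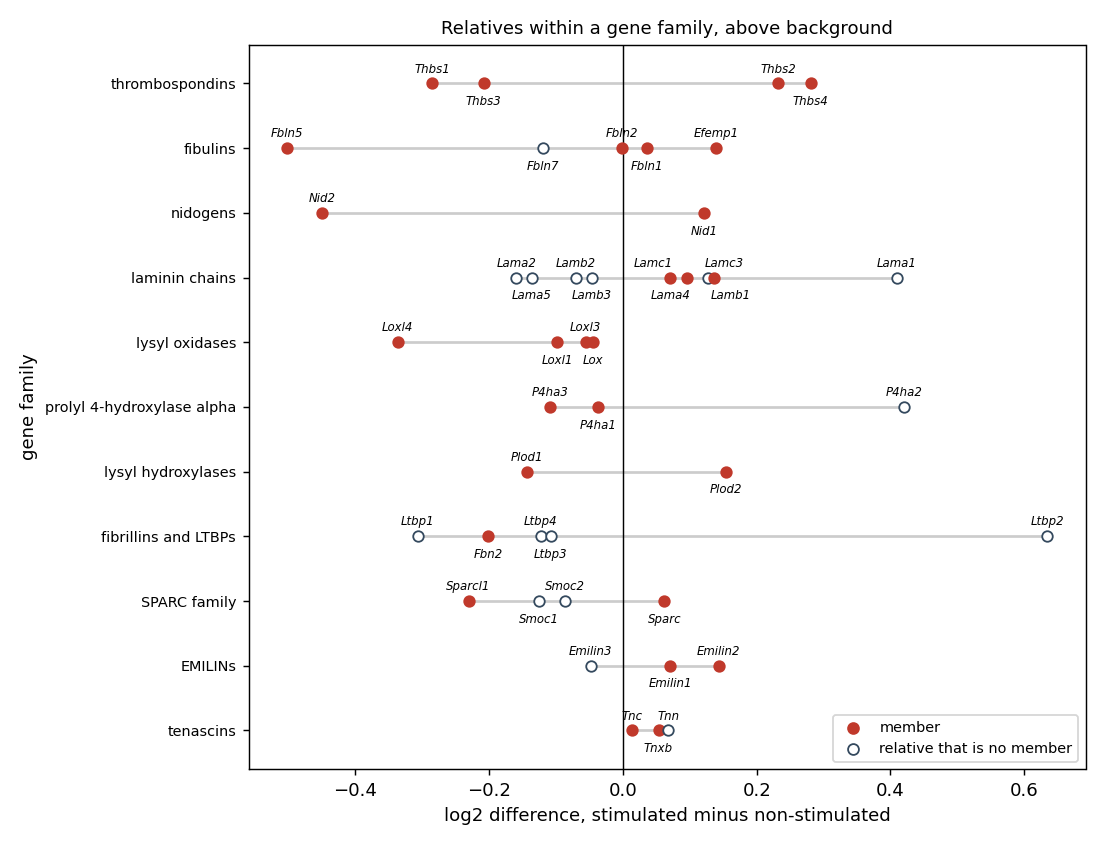
Log2 difference, stimulated minus non-stimulated (x axis), of genes above background in 11 families (y axis); filled points are members and open points relatives outside the set. Thrombospondins, fibulins, nidogens, lysyl hydroxylases and the SPARC family have members on both sides of 0, from -0.50 for Fbln5 to 0.28 for Thbs4. The 4 lysyl oxidases lie below 0.

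Other genes of the same processes showed likewise small medians with a few larger differences. Of 27 other matrix glycoprotein genes above background, 10 were higher and 17 lower (median -0.05). At 1.2-fold 2 were higher (7.41%, background 6.11%) and 3 lower (11.1%, background 6.91%). The highest were Ltbp2 (0.63), Svep1 (0.33) and Srpx2 (0.25), and the lowest Ecm2 (-0.46), Ltbp1 (-0.31) and Npnt (-0.29), which encodes the basement membrane integrin ligand nephronectin. Ecm2 read 5.57 stimulated and 6.03 non-stimulated, so that its difference rests on a stimulated value at the background level. Of 14 other basement membrane genes, 4 were higher and 10 lower (median -0.10). At that fold 1 was higher (7.14%, background 6.11%) and 4 lower (28.6%, background 6.91%), a larger lower share than the 15.4% of members. Ntn4, a laminin-related netrin, read 6.02 stimulated and 6.65 non-stimulated (-0.63). Tinagl1 differed by -0.49 and the type IV collagen gene Col4a5 by -0.46, against 0.41 for Lama1, 0.13 for Lamc3 and 0.01 for Col4a2, the 3 highest. Of 16 other genes of collagen processing, 6 were higher and 10 lower (median -0.08). At 1.2-fold 1 was higher (6.25%, background 6.11%) and 1 lower (6.25%, background 6.91%), near the background. Tll1, a procollagen-cleaving protease related to Bmp1, read 6.67 stimulated and 7.34 non-stimulated (-0.67), followed by the transglutaminase gene Tgm2 (-0.24) and the prolyl 3-hydroxylase gene P3h2 (-0.17). The highest were P4ha2 (0.42), Adamts14 (0.25), which encodes a procollagen N-propeptidase, and Pcolce2 (0.15), an enhancer of procollagen cleavage. No gene of these 3 lists differed by 2-fold.

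**Figure D5:**
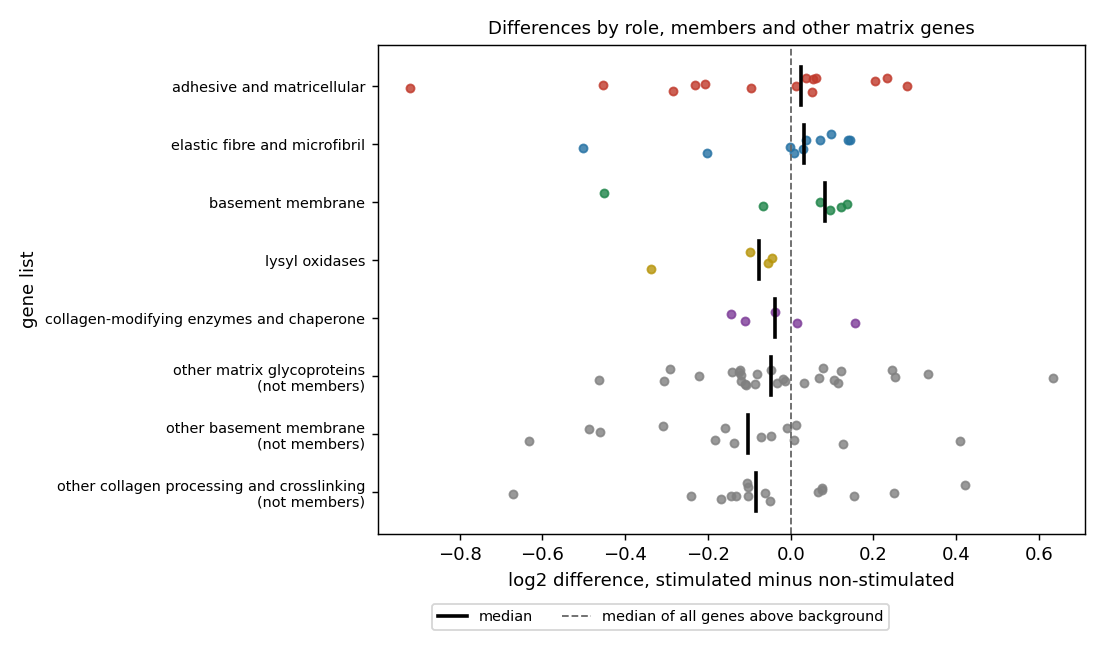
Log2 difference, stimulated minus non-stimulated (x axis), of genes above background in the 5 role groups of the set (coloured) and in 3 lists of other matrix genes (grey); black bars are medians and the dashed line is the median of all genes, 0.00. The medians of the role groups run from -0.08 for lysyl oxidases to 0.08 for basement membrane, and those of the other lists from -0.10 to -0.05.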

How the data were processed

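The deposited table gives a log2 value for each probeset on each array, made by the authors with Affymetrix Expression Console and RMA per the submitters' processing notes. No version of either is named there. RNA of triplicate cultures was pooled, per the series design text deposited by the authors, so no replicate exists. The sorted values of the arrays differed by at most 0.0757. Of 41345 probesets, 23521 were paired with 1 gene by the platform annotation. The gene IDs of 23328 matched RefSeq (GRCm38.p6), which gave current symbols. The probeset with the highest mean stood for each gene. Differences, counts and medians were computed with Python 3.11.15 and pandas 2.3.3. In shuffled differences with known folds added to some genes, only the shift of their median was checked. The counts past each fold were not compared with an expected value. Members, role groups and lists were chosen with earlier results of these data known, and families, brightness sets, the 0.1 tolerance, motifs and the promoters shown were chosen after values were seen. The NF-kB pattern searched first was replaced by the consensus, and both shares are given. All members above background are named, as are the 3 highest and 3 lowest genes of each list of other matrix genes, the brightest markers, some defining ones and Lyz2. Alternatives were other background filters, the mean of a gene's probesets, centred differences, means, and groups without their most different member. The protein comparison that was planned was not made.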

Additional observations from a re-analysis of the deposited data

How the results depend on the processing

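With 1 array per condition, an alternative shows only how far a value depends on the processing. No paired analysis was possible because each group holds 1 sample. For the 6 counts of members past a fold, 34 of 36 alternative values stayed within 1.5 times. The count at least 1.2-fold higher became 2 of 41 with no background filter, which lets in Mfap4, beside 8.62% of all genes. It became 0 of 34 with the background at the 99th percentile of the receptor probesets, where Thbs4 is no longer compared. Under that setting 4.72% of all genes were at least 1.2-fold higher. The count at least 1.2-fold lower was 6, or 5 with that stricter background or with values raised to the background level, both times without Spon1. Among all genes that count was 972 of 14068 (6.91%), against 2466 of 22180 (11.1%) with no filter. It was 355 of 9434 (3.76%) with the stricter background and 817 of 14068 (5.81%) with values raised to the background level. Of 48 alternative medians, 47 moved by at most 0.1 on the log2 scale, and the mean of the adhesive and matricellular group was -0.090 where its median was 0.02. Of 229 alternative differences of single members, 228 moved by at most 0.1, the exception being Spon1, at -0.18 with values raised to the background level. Most of these values could not move, so the count is no measure of stability. The filters only change which genes are kept. Among the members, raising values to the background level alters only Spon1, and averaging probesets alters only Nid1. Centring on the median takes 0.0016 from every difference. Centring on a lowess trend turned the signs of Mfap5 and Serpinh1, both near 0, giving 19 members higher and 20 lower.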
